A study of Mus musculus with 6 samples.

Results

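In all, 10 genes for transcription factors of the cardiac lineage were followed in bulk RNA-seq of mouse embryonic stem cells (mESCs) and of cardiac precursor cell cultures (CPCCs). They were taken by gene symbol from the gene count tables of both cell types, and they are 10 of 16279 genes listed in either table. The genes are *Nkx2-5*, *Tbx5*, *Tbx20*, *Isl1*, *Gata4*, *Gata5*, *Gata6*, *Hand1*, *Hand2* and *Mef2c*. A table lists a gene when its counts over the 3 libraries sum to 10 or more. *Tbx20*, *Isl1*, *Gata4* and *Gata6* were listed in both tables, *Nkx2-5*, *Hand1*, *Hand2* and *Mef2c* in the CPCC table alone, *Tbx5* in the mESC table alone, and *Gata5* in neither.

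The mESCs were male F1 cells with a C57BL/6J mother and a CAST/EiJ father (labelled C57BL/6 x CAST/EiJ), derived from 3 blastocysts and grown in 2i medium with LIF. The CPCCs were made in culture from those mESC clones through hanging-drop aggregates and embryoid bodies, and were then passaged with EGF and Fgf2. The CPCCs are mixed cultures rather than a purified cell type. Each cell type had 3 libraries, named here by their column headings: S01 to S03 are mESCs, and S04 to S06 are CPCCs.

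In the embryo, BMP, WNT and FGF signals turn early mesoderm, marked by *T* and *Eomes*, towards the heart, and a small set of transcription factors then holds the cardiac program. NKX2-5, a homeodomain protein, the zinc finger proteins GATA4, GATA5 and GATA6, the T-box proteins TBX5 and TBX20, and MEF2C, a MADS-box protein, bind jointly at genes of the contractile apparatus. ISL1, a LIM homeodomain protein, marks progenitors of the second heart field, and the bHLH proteins HAND1 and HAND2 act in the growth of the ventricles. Several of these factors also work outside the heart: GATA4 and GATA6 in primitive endoderm, HAND1 in trophoblast, ISL1 in motor neurons, and MEF2C in skeletal muscle, neurons and endothelium.

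Total counts were 6442639 to 6907330 in the mESC libraries and 8468819 to 11436062 in the CPCC libraries. Levels are given as CPM, read counts relative to the library size, scaled by the TMM method over the genes of both tables. A gene missing from a table was taken to have at most 3 counts in each library there, a mean of 0.448 CPM in mESCs and 0.335 CPM in CPCCs. This floor covers counting error only. In a bulk library, fewer cells of a type and less RNA per cell cannot be told apart.

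Library S04 stood apart from S05 and S06 for most of the cardiac factors and the cardiac target genes, as seen after their values were examined. It did not for the cofactors, where it was highest for 13 of 30. S04 was also highest for 7 of 8 smooth muscle and 4 of 6 endothelial markers, and for 2 of 11 fibroblast markers. Spearman correlations over genes were 0.943 to 0.982 between CPCC libraries and 0.977 to 0.985 between mESC libraries. The summed level of 10 pluripotency markers was 6930 to 7122 CPM in mESCs, and 167, 326 and 450 CPM in S04, S05 and S06, and all 10 were lower in CPCCs. In these cultures, labelled Cardiac Precursor Cells, *Isl1*, *Gata4* and *Tnnt2* had counts in each CPCC library, *Nkx2-5* had none in S05, and *Tbx5* was not listed. Values without S04, or without another library, are given where leaving it out moved a fold by over 1.5 times.

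Promoter sequences are shown for *Tbx20* and *Mef2c*, which had the highest mean CPM of the factors in CPCCs beside *Gata6*. *Hand2* is shown because its window held a match to the GATA letters used here, AGATAA. Each sequence is the 250 bases before the RefSeq start site (GRCm38.p6), read 5′ to 3′ on the strand of the gene. Capitals mark matches on either strand to a single spelling of the GATA motif, AGATAA, or to the core of an NK2 element, spelled AAGTG. Other spellings of either motif were not searched for and are not marked. The windows are chr9:24774304-24774553 on the minus strand for *Tbx20*, chr13:83503784-83504033 on the plus strand for the most upstream of 3 *Mef2c* entries, and chr8:57320733-57320982 on the plus strand for *Hand2*.
Tbx20: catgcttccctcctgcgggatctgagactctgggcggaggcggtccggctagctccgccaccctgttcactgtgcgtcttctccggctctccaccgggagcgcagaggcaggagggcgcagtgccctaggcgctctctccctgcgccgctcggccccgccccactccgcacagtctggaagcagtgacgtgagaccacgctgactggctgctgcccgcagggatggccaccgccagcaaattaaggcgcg
Mef2c: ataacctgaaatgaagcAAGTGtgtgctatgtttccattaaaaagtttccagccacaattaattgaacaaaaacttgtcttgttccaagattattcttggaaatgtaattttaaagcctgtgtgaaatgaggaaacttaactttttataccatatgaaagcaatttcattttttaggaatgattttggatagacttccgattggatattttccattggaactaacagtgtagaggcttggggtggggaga
Hand2: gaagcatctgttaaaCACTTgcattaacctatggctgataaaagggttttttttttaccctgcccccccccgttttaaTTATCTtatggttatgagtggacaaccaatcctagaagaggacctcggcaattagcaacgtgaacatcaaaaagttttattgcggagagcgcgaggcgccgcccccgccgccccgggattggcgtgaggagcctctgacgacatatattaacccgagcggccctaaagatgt

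The *Tbx20* window was 68.8% G and C with 22 CpG dinucleotides and had no match to either motif. The *Mef2c* window was 33.6% G and C with 1 CpG, against a median of 52.4% and 6 CpG over 32851 RefSeq promoters, and it held 1 AAGTG match. The *Hand2* window, at 49.2% G and C with 15 CpG, held 1 match to each motif. AGATAA occurred in 1 of the 8 entries for 6 of the factors and in 9.99% of all promoter windows of this length. AAGTG occurred in 4 of the 8 and in 40.7% of all windows. An E-box, CANNTG, was found in 6 of the 8 entries for 6 of the factors and in 66.2% of all windows, and the T-box half-site GGTGTGA (3.33% of all windows) and the MEF2 box CTANNNNTAG (3.20%) in 0 of the 8. The E-box and the NK2 element can share bases, as can the E-box and the T-box half-site. These matches describe the letters of the windows and were not tested for binding.

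*Tbx20* and *Gata6* rose from mESCs to CPCCs, and *Mef2c* was found in CPCCs at least 31.3-fold above the floor in mESCs. *Isl1* and *Gata4* had higher means in CPCCs but did not pass the test. *Nkx2-5*, *Hand1* and *Hand2* were low in CPCCs, and *Tbx5* and *Gata5*, which act with them in the heart, were not listed there. Of the 4 factors tested by edgeR's quasi-likelihood test, 2 were called higher and 0 lower at an adjusted p under 0.05, while 31.7% of the 12471 genes tested were called higher and 29.7% lower. All 4 log2 fold changes were positive, so 0 were lower at an unadjusted p under 0.05 as well, and DESeq2 also called 2 higher and 0 lower. The median log2 fold change of the 4 was 2.09, beside 0.031 over all genes tested.

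**Figure D1:**
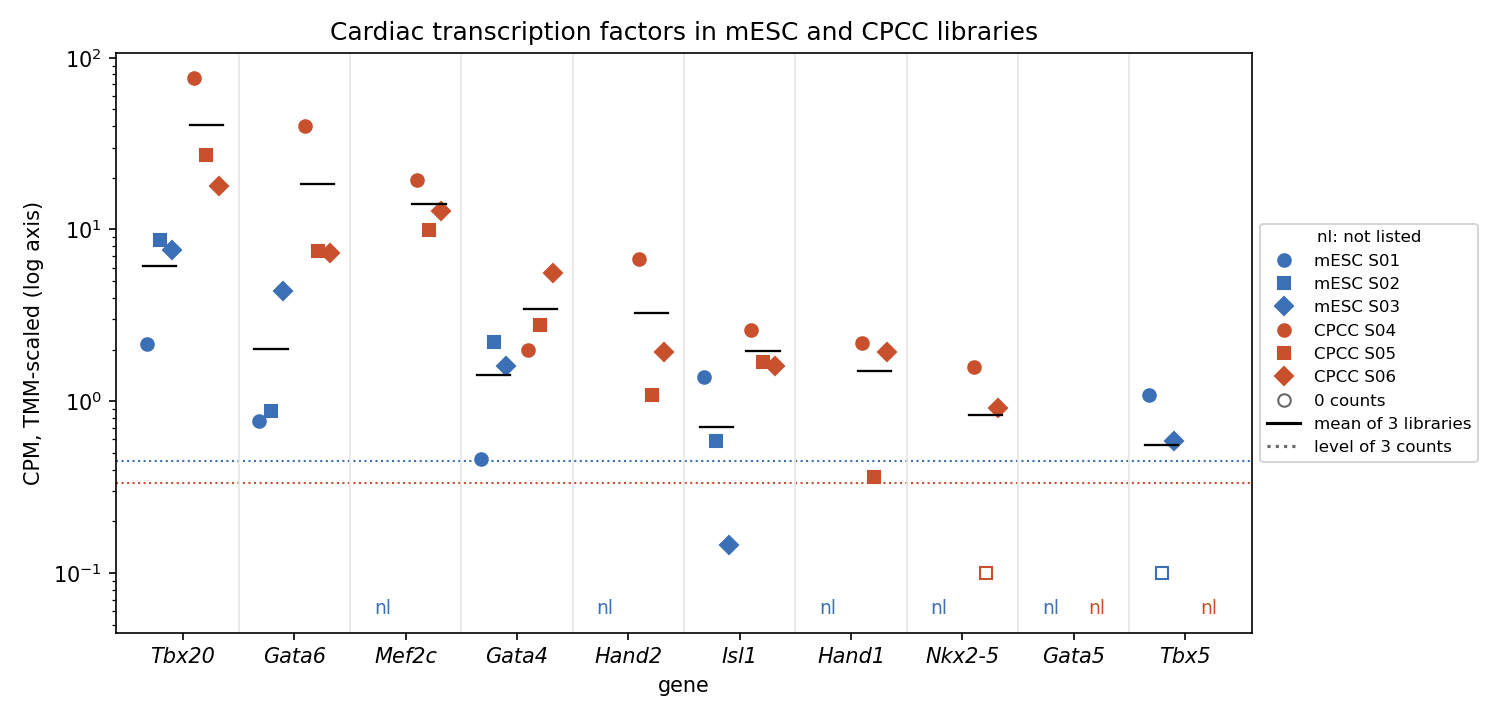
CPM of each factor (log axis) in the 3 mESC libraries (blue) and the 3 CPCC libraries (red), with black bars at group means, dotted lines at the level of 3 counts, open symbols for 0 counts and "nl" where a table does not list the gene. *Tbx20*, *Gata6* and *Isl1* have every CPCC library above every mESC library, and S04 is the highest CPCC library for 7 of 8 factors listed there.

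*Tbx20* encodes a T-box protein of cardiomyocytes and the endocardium. The gene (chr9:24720812-24774304, minus strand, mm10, as the tables give it) had 14, 59 and 52 counts in mESCs (S01, S02 and S03, the order used throughout) and 769, 225 and 156 counts in CPCCs (S04, S05 and S06). In CPM these are 2.16, 8.68 and 7.61 in mESCs (mean 6.15 ± 3.49, SD, n = 3) and 76.4, 27.3 and 17.9 in CPCCs (40.5 ± 31.5, SD, n = 3). The groups did not overlap, and S04 was 3.39 times the mean of S05 and S06. The log2 fold change was 2.72 with an SE of 0.63 (edgeR adjusted p = 0.00472). Without S04 it was 1.88 (edgeR adjusted p = 0.00276), and leaving out any other library gave 2.32 to 3.08.

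*Gata6* encodes a zinc finger protein of early cardiac mesoderm, the outflow tract and extraembryonic endoderm. Its counts were 5, 6 and 30 in mESCs and 403, 62 and 64 in CPCCs, or 0.772, 0.883 and 4.39 CPM in mESCs (2.01 ± 2.06, SD, n = 3) and 40.1, 7.52 and 7.33 CPM in CPCCs (18.3 ± 18.8, SD, n = 3). A single high library stood out in each cell type, S03 and S04, and the groups did not overlap. The log2 fold change was 3.17 with an SE of 0.87 (edgeR adjusted p = 0.0113). It was 1.88 without S04 (edgeR adjusted p = 0.0284) and 4.45 without S03 (edgeR adjusted p = 0.0101), and the call was kept in each fit that left out a library. An unlisted gene on the other strand, 1010001N08Rik, shares 93 of the 6508 exonic bases of *Gata6* in GENCODE vM21. Reads on those bases cannot be told apart because the sources do not state whether counting used the strand.

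*Mef2c*, needed for looping and for the right ventricle in the mouse heart, was the most abundant factor without a listing in mESCs. The gene (chr13:83504034-83667080, plus strand) had 194, 82 and 112 counts in S04, S05 and S06, which sum to 388 (95% exact Poisson interval 350 to 429). These are 19.3, 9.94 and 12.8 CPM (14.02 ± 4.78, SD, n = 3), so that each CPCC library was well above the floor. Against the mESC floor the mean was at least 31.3-fold higher. Fits over genes of either table filled in the missing mESC values. Those values have no measured spread, so such fits add no test to this bound. With missing genes at 0 counts *Mef2c* was called higher, as was 36.4% of 13630 genes. With missing genes at 3 counts per library its log2 fold change was 4.86, and 34.8% of genes were called higher. *Nkx2-5*, *Hand1*, *Hand2* and *Tbx5* did not pass edgeR's filter on low counts in either fit.

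*Gata4*, a partner of NKX2-5 and TBX5 at cardiac genes, had 3, 15 and 11 counts in mESCs and 20, 23 and 49 in CPCCs. In CPM these are 0.463, 2.21 and 1.61 in mESCs (1.43 ± 0.886, SD, n = 3) and 1.99, 2.79 and 5.62 in CPCCs (3.46 ± 1.91, SD, n = 3). The lowest CPCC library, S04, lay below the highest mESC library, S02, so the groups overlapped. The log2 fold change of 1.26 with an SE of 0.68 did not pass the test (edgeR adjusted p = 0.137). *Gata4* was the exception among the factors in that S04 was its lowest CPCC library, at 0.473 times the mean of S05 and S06.

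*Isl1* had 9, 4 and 1 counts in mESCs and 26, 14 and 14 in CPCCs. In CPM these are 1.39, 0.588 and 0.146 in mESCs (0.708 ± 0.631, SD, n = 3) and 2.58, 1.70 and 1.60 in CPCCs (1.96 ± 0.541, SD, n = 3). Every CPCC library was above every mESC library, as for 3 of the 4 factors in both tables and for 34.1% of the 13001 genes in both. The log2 fold change of 1.47 with an SE of 0.76 did not pass the test (edgeR adjusted p = 0.124). Leaving out a library gave log2 fold changes of 0.99 (without S03) to 2.37 (without S01), with edgeR adjusted p from 0.0585 to 0.292.

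The bHLH genes were listed in CPCCs alone. *Hand2* (chr8:57320983-57324518, plus strand) had 68, 9 and 17 counts in S04, S05 and S06, or 6.76, 1.09 and 1.95 CPM (3.27 ± 3.06, SD, n = 3). The mean was at least 7.29-fold above the mESC floor, and the level in S04 was 4.45 times the mean of S05 and S06. Without S04 the bound was 3.39-fold. The unlisted antisense gene Hand2os1 shares 461 of the 2351 exonic bases of *Hand2* in GENCODE vM21, and reads on those bases likewise cannot be told apart. *Hand1* (chr11:57828713-57832148, minus strand) had 22, 3 and 17 counts, or 2.19, 0.364 and 1.95 CPM (1.50 ± 0.991, SD, n = 3), at least 3.35-fold above the mESC floor. Its level in S05 was at the floor of that library, 3 counts.

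*Nkx2-5*, the homeodomain factor most used to mark committed cardiac progenitors, had 16, 0 and 8 counts in CPCCs. These are 1.59, 0 and 0.917 CPM (0.836 ± 0.798, SD, n = 3), at least 1.87-fold above the mESC floor. Without S04 the mean was 0.458 CPM, or 1.02 times the floor, so the bound rests on that library. The sum of 24 counts has an exact Poisson interval of 15.4 to 35.7, which lies above 9, the largest sum of an unlisted gene, yet S05 had no count. *Tbx5*, a T-box factor of the left ventricle and atria, had 7, 0 and 4 counts in mESCs, or 1.08, 0 and 0.585 CPM. Their sum of 11 has an interval of 5.49 to 19.7, which includes 9, so a difference between the cell types was not detectable at this depth. *Gata5*, which acts with *Gata4* and *Gata6* in the endocardium, had under 10 counts in each cell type.

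The order of levels in CPCCs was set per kilobase of the median coding transcript in GENCODE vM21 (basic set). *Tbx20* had a mean of 7.44 ± 5.77 CPM per kb, *Gata6* 5.66 ± 5.83 and *Mef2c* 3.99 ± 1.36 (SD, n = 3). These 3 were not separated by their spread, since *Tbx20* led in S04 and S05 and *Mef2c*, at 3.65 CPM per kb, in S06. A lower group followed, with *Hand2* at 1.39 ± 1.30, *Isl1* at 1.06 ± 0.291, *Gata4* at 1.03 ± 0.565, *Hand1* at 0.808 ± 0.534 and *Nkx2-5* at 0.548 ± 0.523 CPM per kb, and neighbours in this order also overlapped. In mESCs the means were 1.13 ± 0.641 CPM per kb for *Tbx20*, 0.623 ± 0.636 for *Gata6*, 0.423 ± 0.263 for *Gata4*, 0.381 ± 0.340 for *Isl1* and 0.141 ± 0.137 for *Tbx5*, again with overlap between neighbours. Over all annotated exons, *Mef2c*, with 13 coding transcripts in that set, fell to 0.892 CPM per kb in CPCCs and below *Hand2* at 1.39, so its place depends on the length used.

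Relatives of the factors in the same families gave a wider range of levels. *Mef2a* and *Mef2d*, MADS-box genes used in many tissues, both rose. *Mef2a* was at 11.1, 7.35 and 17.4 CPM in mESCs against 251, 101 and 74.6 CPM in CPCCs, with a log2 fold change of 3.57 and an SE of 0.50 (edgeR adjusted p = 0.000309, and 2.89 without S04). *Mef2d* was at 37.2, 36.9 and 39.5 CPM in mESCs against 81.0, 70.6 and 61.2 CPM in CPCCs, with a log2 fold change of 0.90 and an SE of 0.18 (edgeR adjusted p = 0.00202). Per kb, *Mef2a* at 38.4 ± 25.7 and *Mef2d* at 26.9 ± 3.76 CPM were above *Mef2c* in every CPCC library. *Mef2b* had 1.08 to 2.78 CPM in mESCs and 0.497 to 1.09 CPM in CPCCs and did not pass the filter. *Mef2a* and *Mef2d* each share exonic bases with a listed gene on the other strand, *Lysmd4* (302 bases) and 1700113A16Rik (531 bases). Reads on those bases cannot be told apart without the strand.

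The GATA relatives moved in opposite directions. *Gata2*, a factor of blood and endothelium, was at 26.6, 35.7 and 41.4 CPM in mESCs against 7.55, 4.002 and 7.68 CPM in CPCCs, and fell by 2.42 on the log2 scale (SE 0.32, edgeR adjusted p = 0.00021). *Gata3*, a factor of T cells and trophoblast, was at 1.08, 1.77 and 3.22 CPM in mESCs against 38.4, 13.3 and 8.82 CPM in CPCCs, a log2 fold change of 3.31 (SE 0.64, edgeR adjusted p = 0.00186) that was 2.45 without S04. *Gata1*, of the red cell lineage, was in neither table. In CPCCs *Gata3*, at 6.28 ± 4.95 CPM per kb, was at a level near that of *Gata6*, and the libraries of the pair overlapped. Over all annotated exons the means were 5.07 CPM per kb for *Gata3* and 2.81 for *Gata6*, so this nearness depends on the length used. An unlisted gene on the other strand, Gm13256, shares 155 exonic bases with *Gata3*.

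Of 14 T-box relatives, 7 were tested, of which 2 rose and 3 fell, with a median log2 fold change of -0.29. These counts stand beside 31.7% higher and 29.7% lower over all genes tested. *Tbx18*, a gene of the epicardium and sinus horns, rose from 1.02 to 1.39 CPM in mESCs to 32.6, 14.8 and 16.2 CPM in CPCCs (log2 fold change 4.19, SE 0.45, edgeR adjusted p = 6.54e-05). *Tbx1*, a gene of the pharyngeal mesoderm, had a log2 fold change of 2.11 (SE 0.63, edgeR adjusted p = 0.0169), and lost the call without S01 (edgeR adjusted p = 0.0606) and without S05 (edgeR adjusted p = 0.0869). *Tbx2*, a repressor in the atrioventricular canal, was listed in CPCCs alone at 5.86, 11.2 and 18.5 CPM, at least 26.4-fold above the mESC floor. The genes that fell were *Tbx3*, from 51.8 to 64.7 CPM in mESCs to 1.09 to 1.72 CPM in CPCCs (log2 fold change -5.36, edgeR adjusted p = 1.88e-06), *T* (-3.16, and -3.75 without S06) and *Eomes* (-1.80). Of the NK2 and ISL relatives, *Nkx2-9* was the only gene tested of 7, and rose with a log2 fold change of 3.91 (SE 0.66, edgeR adjusted p = 0.000863), or 5.26 without S01. *Nkx2-2* and *Nkx2-3* were listed in CPCCs alone, at 0.596 to 5.94 CPM and 1.46 to 3.21 CPM, the former highest in S05.

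**Figure D2:**
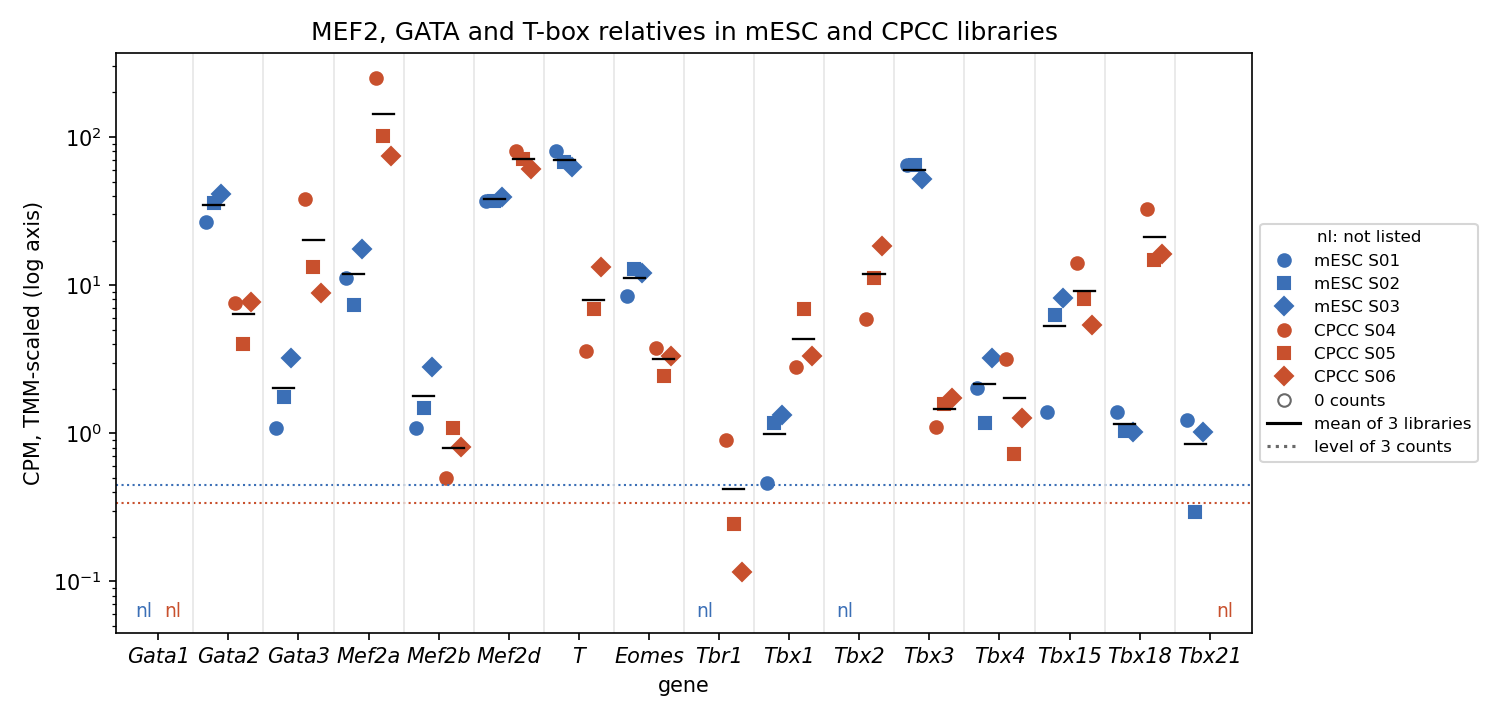
CPM (log axis) of the GATA, MEF2 and T-box relatives in each mESC (blue) and CPCC (red) library, with group means, 3-count levels and "nl" marks as for the cardiac factors. *Mef2a*, *Mef2d*, *Gata3*, *Tbx1* and *Tbx18* were called higher in CPCCs, and *Gata2*, *Tbx3*, *T* and *Eomes* lower.

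Cofactors that bind these factors or act beside them rose more often than not. Of 31, 25 were tested and 18 were called higher, with a median log2 fold change of 1.50. Over all genes tested, 31.7% were called higher and 29.7% lower. *Zfpm2*, which encodes the FOG2 partner of GATA4, was at 0.731 to 0.927 CPM in mESCs against 81.0, 28.3 and 23.1 CPM in CPCCs (log2 fold change 5.77, SE 0.61, edgeR adjusted p = 6.10e-05, and 4.996 without S04). *Meis1*, a homeodomain partner of HOX proteins, was at 0.463 to 2.49 CPM and 53.2 to 69.2 CPM (log2 fold change 5.53, SE 0.44, edgeR adjusted p = 1.26e-05, and 6.35 without S03). *Irx5*, an Iroquois repressor in the ventricles, was at 0.154 to 0.878 CPM and 18.7 to 29.5 CPM (log2 fold change 5.21, SE 0.49, edgeR adjusted p = 3.19e-05). *Foxc1* (41.5 to 74.0 CPM) and *Hdac9* (11.9 to 14.8 CPM) were listed in CPCCs alone, at least 134-fold and 29.9-fold above the mESC floor. The 7 that were not called were *Hopx*, *Ldb1*, *Hey1*, *Foxh1*, *Hdac5*, *Ep300* and *Casz1*.

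Mesoderm genes that act before the cardiac factors did not move in a common direction. Of 13, 5 were tested, with 1 higher and 2 lower (median log2 fold change 0.78). Among all genes tested the shares were 31.7% higher and 29.7% lower. *Wnt3* rose (log2 fold change 2.76, SE 0.62, edgeR adjusted p = 0.00399), while *T* and *Eomes* fell as given above. *Mesp1*, the bHLH gene of the earliest cardiac mesoderm, was in neither table. Of this list, 2 genes were listed in CPCCs alone and 2 in mESCs alone. *Kdr* was listed in CPCCs alone at 2.18 to 5.46 CPM. *Gsc*, listed in mESCs alone, had a log2 fold change of -5.02 with its CPCC values filled in at 3 counts per library. Of 14 inducing signals, 5 were tested, with 2 higher and 2 lower. *Bmp7*, among the lower, had a log2 fold change of -1.07 (edgeR adjusted p = 0.0415), and its call was lost in 5 of 13 alternative fits. *Bmp4* rose from 2.34 to 7.72 CPM in mESCs to 49.3 to 96.5 CPM in CPCCs (log2 fold change 3.97, SE 0.43, edgeR adjusted p = 6.68e-05). *Dkk1*, a WNT antagonist, had a log2 fold change of 1.86 (edgeR adjusted p = 0.0241) that lost the call without S02, S03, S05 or S06 (edgeR adjusted p = 0.0578 to 0.0882) and was 2.46 without S01, and *Sfrp1*, another, fell by 1.41 on the log2 scale. *Wnt5a* (102 to 232 CPM) and *Bmp2* (16.8 to 29.7 CPM) were listed in CPCCs alone, at least 381-fold and 50.1-fold above the mESC floor.

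Target genes of the factors in cardiomyocytes were listed in CPCCs for 22 of 24, 10 of them there alone, and 1 was listed in mESCs alone. That gene, *Tnni3*, cardiac troponin I, had a log2 fold change of -2.99 with its CPCC values filled in at 3 counts per library. Of 11 targets tested, 5 rose and 1 fell, with a median log2 fold change of 1.20, beside 31.7% higher and 29.7% lower over all genes. *Slc8a1*, the sodium-calcium exchanger, was at 0 to 1.76 CPM in mESCs and 46.4 to 65.5 CPM in CPCCs (log2 fold change 6.23, SE 0.64, edgeR adjusted p = 5.29e-05, and 8.33 without S03). *Tnnt2*, cardiac troponin T, was at 1.18 to 2.34 CPM in mESCs against 103, 24.01 and 28.3 CPM in CPCCs (log2 fold change 5.01, SE 0.67, edgeR adjusted p = 0.000227, and 4.04 without S04). *Gja1*, connexin 43, was at 17.1 to 23.4 CPM and 467 to 591 CPM (log2 fold change 4.67, SE 0.20, edgeR adjusted p = 1.31e-06). *Actc1*, cardiac alpha-actin (281, 85.4 and 85.6 CPM), and *Ankrd1* (114, 33.7 and 31.6 CPM) were listed in CPCCs alone, at least 336-fold and 134-fold above the mESC floor, and 191-fold and 73.0-fold without S04. The remaining calls, named after their values were seen, were *Nppb*, which lost the call without S01, S02 or S04 (edgeR adjusted p = 0.104 to 0.139), *Myl4*, which lost it without S01, S02, S03 or S04 (edgeR adjusted p = 0.0638 to 0.202), and *Ttn*, which fell by 1.46 on the log2 scale.

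**Figure D3:**
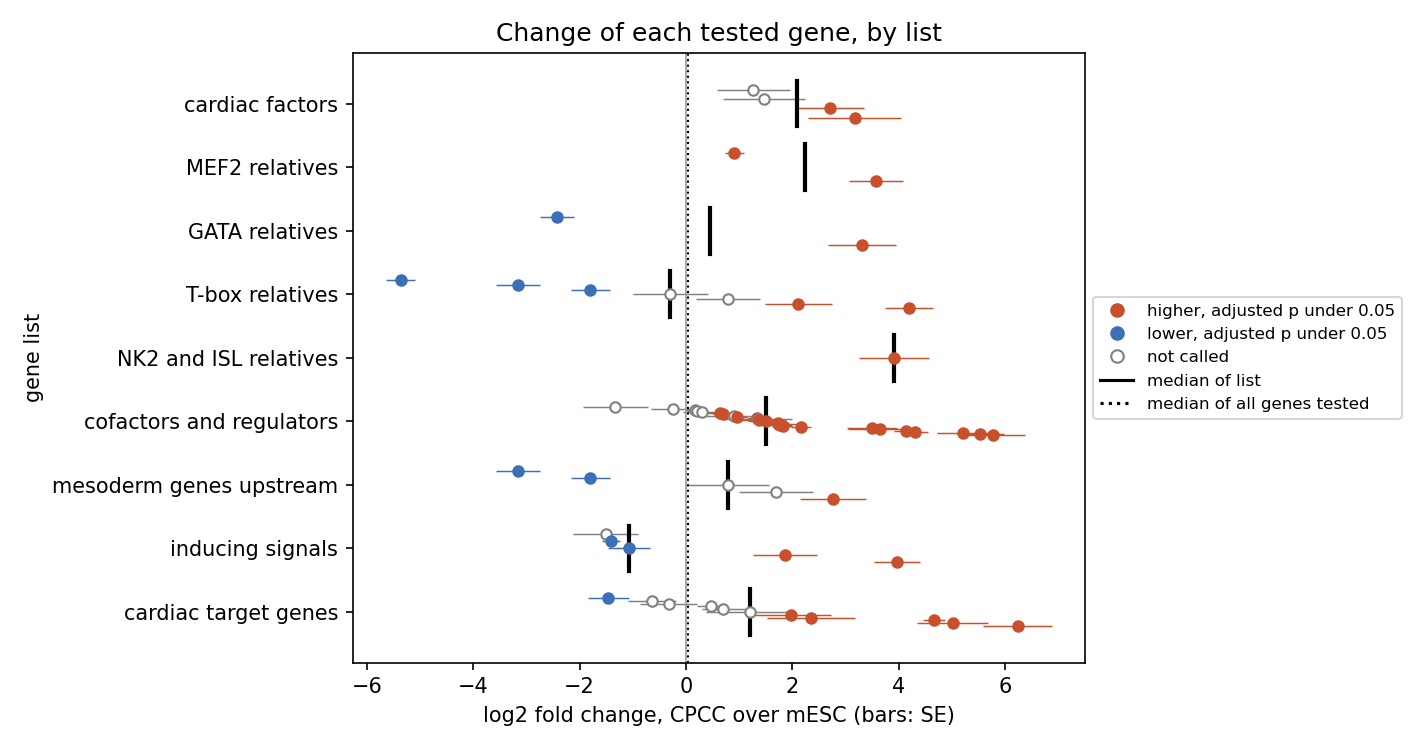
Log2 fold change of CPCCs over mESCs for each tested gene by list (x axis, bars SE), with filled red symbols called higher, filled blue symbols called lower and open symbols not called by edgeR. Black bars are list medians, which run from -1.07 for inducing signals to 3.91 for the single NK2 and ISL gene, and the dotted line is the median of all genes tested, 0.031.

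Within CPCCs most of the factors were highest in S04, by description and without a test. S04 was the highest CPCC library for 7 of the 8 factors listed there, for 19 of 22 cardiac target genes and for 38.9% of all 15519 genes of the CPCC table. The ratio of S04 to the mean of S05 and S06 was 5.39 for *Gata6*, 4.45 for *Hand2*, 3.47 for *Nkx2-5*, 3.39 for *Tbx20*, 1.89 for *Hand1*, 1.69 for *Mef2c* and 1.57 for *Isl1*. On the log2 CPM scale (prior count 2), the median difference of S04 from the mean of S05 and S06 was 1.41 over the 8 factors and 1.31 over the cardiac targets, beside -0.022 over all CPCC genes, of which 10% were above 0.94 and 5% above 1.31. Pluripotency markers lay the other way, with a median of -1.80 and S04 highest for 1 of 10. S04 was also highest for 7 of 8 smooth muscle markers (median 0.61) and 4 of 6 endothelial markers (0.63). It was highest for 4 of 8 trophoblast, 3 of 10 neuron, 2 of 11 fibroblast, 2 of 9 endoderm and 1 of 8 neural crest markers. S04 also had the largest total, 11436062 counts, and CPM is scaled for that total.

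**Figure D4:**
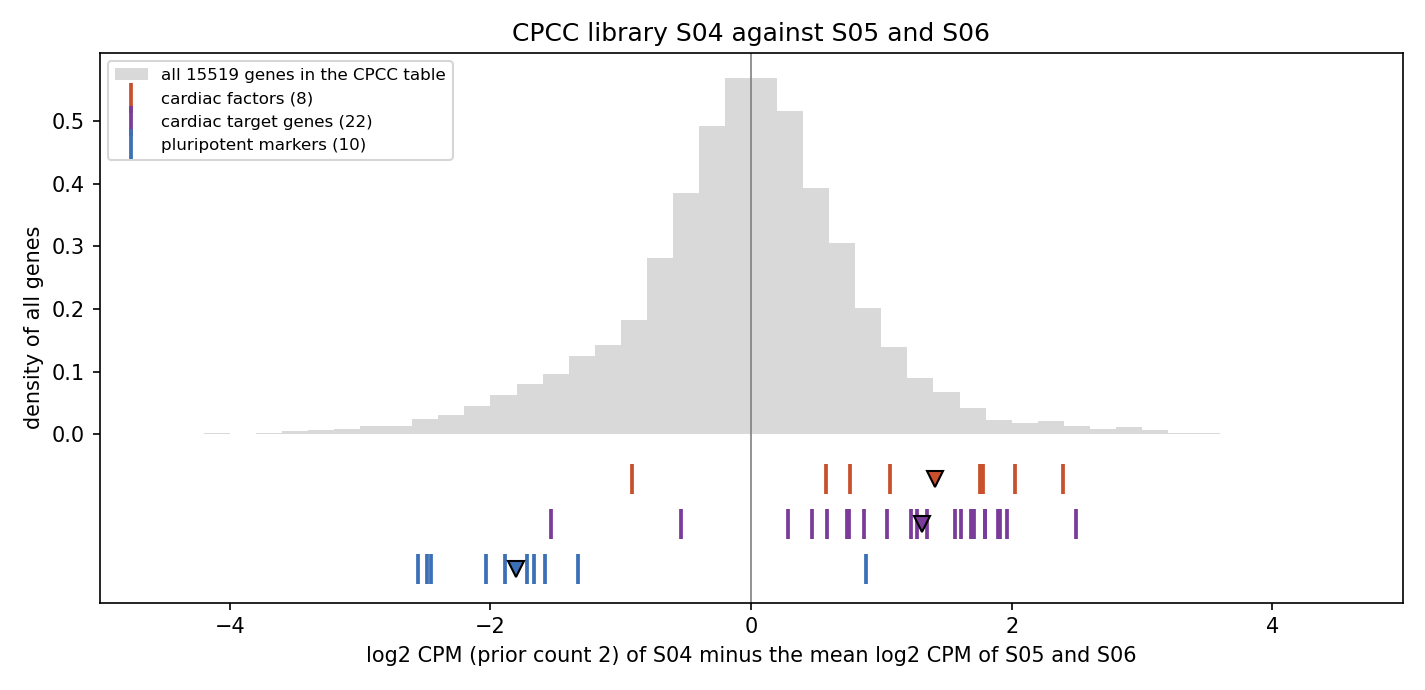
Difference of S04 from the mean of S05 and S06 in log2 CPM (prior count 2, x axis) for all 15519 genes of the CPCC table (grey density) and for the cardiac factors (red), cardiac target genes (purple) and pluripotency markers (blue), with triangles at medians. The factors' median is 1.41, the targets' 1.31 and the pluripotency markers' -1.80, while the grey distribution is centred near 0.

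Markers of other cell types that use some of these factors also moved between the cell types. Their calls are to be read beside 31.7% higher and 29.7% lower over all genes tested. Endoderm markers, which matter for *Gata4* and *Gata6*, summed to 18.2 to 29.5 CPM in mESCs and 173 to 219 CPM in CPCCs, and 4 of 5 tested rose. Among them were *Foxa2* (log2 fold change 4.94, edgeR adjusted p = 0.00132, and 3.92 without S05 or 5.89 without S03) and *Dab2* (3.11, edgeR adjusted p = 6.48e-05). *Foxa2* was lowest in S04, at 5.96 CPM against 47.1 and 17.0 CPM in S05 and S06, and *Afp*, *Ttr* and *Apoa1* were in neither table. Trophoblast markers, which matter for *Hand1*, summed to 97.6 to 105 CPM in mESCs and 538 to 817 CPM in CPCCs, with 4 of 7 higher, *Krt18* and *Krt8* among them, and 3 lower, while *Cdx2*, *Elf5* and *Prl3d1* were in neither table. Neuron markers, which matter for *Isl1* and *Mef2c*, summed to 437 to 467 and 1038 to 1286 CPM, with 6 of 8 higher, led by *Nes*, *Sox1* and *Map2*, while the call of *Elavl3* among the 6 was lost in 6 of 13 alternative fits. Their part in the levels of the factors was not tested.

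Markers of contractile and connective tissue cells were the most abundant of the lists in CPCCs. Calls over all genes tested were 31.7% higher and 29.7% lower. Smooth muscle markers summed to 74.0 to 92.1 CPM in mESCs and to 14588, 11339 and 7873 CPM in S04, S05 and S06, and 4 of 4 tested rose, *Acta2* by 12.31 on the log2 scale. Fibroblast markers summed to 12.05 to 18.7 CPM in mESCs and 6128 to 9412 CPM in CPCCs, with 3 of 4 tested higher, *Col1a1* by 12.40. In comparison, the 10 cardiac factors summed to 5.87, 12.4 and 14.3 CPM in mESCs and to 151, 50.7 and 50.1 CPM in S04, S05 and S06. Endothelial markers summed to 93.3 to 103 CPM in mESCs and 35.0 to 60.4 CPM in CPCCs, with *Pecam1* lower and *Tek* not called. Of the 8, 4 were listed in CPCCs alone and 1 in mESCs alone. In CPCCs alone were *Flt1*, at 20.2 to 31.1 CPM, *Cdh5*, *Emcn* and *Kdr*. The last 3 were at least 11.5-fold, 7.98-fold and 7.46-fold above the mESC floor, with *Cdh5* at 3.28-fold without S04. *Tie1* was in neither table. Of the neural crest markers 3 of 3 tested fell, although their sum was 22.1 to 26.8 CPM in mESCs and 57.6 to 89.3 CPM in CPCCs, with *Ets1* (49.7 to 85.6 CPM) listed there and not in mESCs. The call of *Tfap2a*, among those 3, was lost without any 1 of the 6 libraries (edgeR adjusted p = 0.0532 to 0.0957). The part of these cells in the levels of the factors was not tested.

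The genes with the pattern most like each tested factor were found by the root mean square difference of centred log2 CPM over the 6 libraries. For *Tbx20* these were *Csgalnact1* (difference 0.300), *Gpr34* (0.327) and *Mfsd4a* (0.350). For *Gata6* they were *Gata3* (0.446), *Cpeb2* (0.448) and *Nppb* (0.466), each of which was highest in S04 among the CPCC libraries and in S03 among the mESC libraries. *Isl1* was nearest to A630072M18Rik (0.163), *Brap* (0.214) and *Bbc3* (0.220), and *Gata4* to *Zfp389* (0.149), *Hdhd3* (0.217) and *Gm715* (0.305). The points share the libraries and their scaling, so the likeness is a description of these 6 samples.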

How the data were processed

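PolyA+ RNA of mESCs and CPCCs was made into cDNA libraries and sequenced as paired ends. The submitters' processing notes name STAR 2.7 and the mm10 build. The counter, annotation and use of strand are not given in the sources used here. The authors deposited estimated counts per gene, not normalized, in 1 table per cell type, each holding genes with a sum of at least 10. Of the values of a library, 17.9% to 21.5% were not whole, and they were rounded. The columns carry no replicate numbers, so libraries were assigned to a cell type and not to a replicate or clone.

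Genes in both tables (13001) were filtered with filterByExpr, which removed 530, and tested by edgeR's quasi-likelihood test (edgeR 4.0.16, R 4.3.3) with TMM, at a Benjamini-Hochberg adjusted p under 0.05 over the 12471 genes tested. The SE is the log2 fold change over the root of the F statistic. A gene missing from a table was set to 3 counts per library for bounds. Alternatives were DESeq2 1.42.0, upper-quartile scaling, library totals without TMM, at least 10 counts in every sample, no filter, genes of either table with missing genes at 0 or 3 counts, and each library left out in turn. Bounds without each CPCC library were added after seeing the data. On simulated counts for this comparison over 13001 genes, edgeR recovered 93 of 112 genes changed 4-fold and 23 of 88 changed 2-fold, and called 9 unchanged genes.

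The factors and the gene lists were chosen with earlier results of these data known. Named were all factors, all GATA and MEF2 relatives, the 3 called genes with the largest log2 fold change of each list, the 2 CPCC-only genes with the highest mean CPM of each list, and the 3 genes nearest in pattern to each tested factor, of which a selection is given for the marker lists. *Tbr1* and *Lhx1*, CPCC-only genes at 0.932 and 1.27 times the mESC floor, were not described above. *Gsc*, *Tnni3*, *Bmp7* and further endothelial markers were named after their values were seen. Promoter letters are from RefSeq (GRCm38.p6), which gave entries for 6 of the 10 factors. Gene lengths and overlaps are from GENCODE vM21. Figures were drawn with matplotlib 3.10.9 in Python 3.11.15. With 3 libraries per cell type, p-values measure the spread between these libraries.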

Additional observations from a re-analysis of the deposited data

How the results depend on the processing

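*Tbx20* and *Gata6* kept their call and direction in every fit that tested them. The number of factors called higher was 2, with the following exceptions. It was 1 with at least 10 counts in every sample, where *Gata6* was not tested. It was 3 in both fits over genes of either table, where *Mef2c* was added on filled-in mESC values. *Isl1* and *Gata4* stayed uncalled and positive in every fit that tested them. The filter of 10 counts in every sample also left 0 GATA, 0 T-box, 0 NK2 and ISL and 0 upstream mesoderm genes higher and 1 inducing signal and 1 cardiac target higher, because fewer genes were tested. DESeq2 called 2 upstream mesoderm genes higher. With missing genes at 0 counts, 2 NK2 and ISL genes, 3 upstream mesoderm genes, 6 inducing signals and 13 cardiac targets were called higher, and with missing genes at 3 counts 2, 2, 6 and 13. More genes were tested there, and those missing from a table entered with filled-in values of no spread. *Pdgfra*, tested in each case, passed with missing genes at 0 counts (edgeR adjusted p = 0.0499, beside 0.0609). Leaving out a library in turn gave 2 factors higher in each case, 1 to 2 T-box relatives, 3 to 5 cardiac targets (3 without S01, S02 or S04), 1 to 2 inducing signals and 1 to 2 upstream mesoderm genes (2 without S04). All genes called ranged from 6536 to 7895 in those fits, beside 7656. No fold change of a factor changed sign. Without S04 the bounds of *Hand2* and *Nkx2-5* fell from 7.29-fold to 3.39-fold and from 1.87-fold to 1.02-fold. The other alternatives moved no count of calls by over 1.5 times. No paired analysis was possible because the columns carry no replicate numbers. Depth limits *Nkx2-5*, *Hand1*, *Hand2* and *Tbx5*, which did not pass the low-count filter even when missing genes were filled in.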
